A study of Macaca mulatta with 4 samples.

Results

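Cytotoxic granule genes were followed across the T, NK and proliferating NK/T cells of rhesus macaque blood. The set was listed by symbol and holds 10 genes: the granzymes GZMA, GZMB, GZMH, GZMK and GZMM, perforin (PRF1), granulysin (GNLY), and the granule-associated genes NKG7, CST7 and CTSW. Of these, 9 were read among the 15354 gene rows, and GZMH was not analysed here. GNLY was read from the row ENSMMUG00000063583, which the reference table names, and the other 8 by the symbol in the count tables. The rule that lists them uses no measured values. Their totals over all libraries ran from 1910 unique molecular identifiers (UMIs, counted transcript molecules) for GZMM to 43267 for GZMB, and all 9 had enough counts for every comparison made below.

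The series holds single-cell RNA sequencing of peripheral blood mononuclear cells from Macaca mulatta, in a study of human pluripotent stem cell-derived islets transplanted into monkeys. The design text gives as its purpose the recipient's possible immune response to the islets. There were 4 libraries, 1 per group: Pre-IS, taken before immunosuppression; Post-IS, taken after immunosuppression and before the cell transplant; and 4 wpt and 8 wpt, taken 4 and 8 weeks after transplantation. The labels give blood as the tissue of all 4 libraries. They do not name the immunosuppressive agents, the age or number of the animals, or whether all libraries came from 1 animal. Blood shows cells in circulation only, and a class that loses cells to tissue cannot be told apart here from one that loses them altogether.

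The count tables hold 6993 cells with an author-given label each, among them 3019 T cells, 1195 NK cells and 81 proliferating NK/T cells. The T cells numbered 841 in Pre-IS, 115 in Post-IS, 889 at 4 wpt and 1174 at 8 wpt. The NK cells numbered 257, 9, 270 and 659 in the same order, and the proliferating cells 8, 2, 41 and 30. Post-IS stood apart with 603 cells in all, of which 41.8% had under 1000 UMIs, against 4.57% to 13.0% in the other libraries. Median depth of the T cells was 1526, 1257, 3626 and 1810 UMIs, so shares of cells with a transcript are also given after each cell was thinned to 1000 UMIs. Library pairs shared between 0 and 12 cell barcodes. The labels were read against their markers: a CD3D, CD3E or CD3G UMI was present in 93.9% to 99.3% of T cells and in 22.2% to 41.9% of NK cells, and TYROBP, an adaptor of NK receptors, was present in 90.9% to 95.9% of the NK cells of Pre-IS, 4 wpt and 8 wpt that had 3 or more granule genes at equal depth. Among all NK cells of these libraries at full depth, KLRD1 was found in 95.3% to 97.0%, NCR1 in 20.2% to 46.3% and NCAM1 in at most 1.11%. TYROBP was not confined to NK cells: it was found in 22.9% to 23.4% of T cells and 78.3% to 96.6% of dendritic cells there. The 9 proliferation genes summed to between 4356 and 6032 CPM (UMIs of the gene per 1000000 UMIs of the class) in proliferating cells and to 218 to 313 CPM in T cells.

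Cytotoxic lymphocytes kill by releasing the content of secretory granules onto a target cell. Perforin forms pores in the target membrane, and granzymes, which are serine proteases, pass through and cleave proteins that lead to the death of the cell. NK cells keep these transcripts at a high level without prior contact with antigen, while among T cells they mark effector and memory cells, most of them CD8 T cells, and are low in naive cells.

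NK cells held the highest level of 8 of the 9 genes in every library with a comparable number of cells, and GZMM was the exception. In the levels below, intervals are exact 95% intervals for counting error only, and with 1 library per group no difference between groups could be tested. The labels of the cells rest on the same expression values, so differences between classes are a description. GZMB, the granzyme that cleaves after aspartate and activates caspases, was at 12273 CPM in NK cells against 1865 CPM in T cells of Pre-IS. At 4 wpt the values were 11206 and 1265 CPM, and at 8 wpt 10804 and 2044 CPM. The NK level was 6.58-fold (6.28 to 6.90), 8.86-fold (8.55 to 9.19) and 5.29-fold (5.11 to 5.47) that of T cells, and the spread of these ratios came from the T cells, since NK levels lay close together. GZMA, a tryptase, was at 1043, 1016 and 986 CPM in NK cells of Pre-IS, 4 wpt and 8 wpt. In T cells it was at 124, 131 and 96.7 CPM, which makes NK cells 8.43-fold, 7.75-fold and 10.2-fold higher. GZMB lies next to its paralog GZMH in the reference annotation, with 0 protein-coding genes between them, and how reads shared by such copies were counted is not given in the sources used here, so the GZMB level is uncertain in that respect.

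GZMK, a tryptase encoded beside GZMA, differed less between the classes. It was at 1068 CPM in NK and 371 CPM in T cells of Pre-IS, at 1014 and 381 CPM at 4 wpt, and at 738 and 395 CPM at 8 wpt. The ratio was 2.88 (2.53 to 3.27), 2.66 (2.45 to 2.89) and 1.87 (1.70 to 2.05). GZMM, a granzyme with a preference for methionine and leucine, gave no such gap: T cells held 182, 177 and 231 CPM and NK cells 149, 222 and 154 CPM. NK over T was 0.817 in Pre-IS (0.612 to 1.08). It was 1.25 at 4 wpt, with an interval of 1.07 to 1.46, and 0.665 at 8 wpt, with 0.559 to 0.789. The direction thus differed between libraries, and at 8 wpt GZMM was 1.5-fold lower in NK cells. After thinning, the 4 wpt ratio was close to 1, with a log2 value of 0.06 against 0.33 at full depth. Of all GZMM UMIs in a library, T cells held 60.0% to 77.6%. For GZMB that share was 23.8% to 32.1%.

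Perforin was at 1086, 1082 and 1088 CPM in NK cells of Pre-IS, 4 wpt and 8 wpt, values that differed by less than their counting intervals. T cells held 263, 243 and 290 CPM of it, and NK cells were 3.76-fold to 4.44-fold higher. GNLY, a granule protein that lyses membranes of microbes, gave the largest ratio of the 9 genes in all 3 libraries. It stood at 11466, 12753 and 12026 CPM in NK cells and at 1124, 985 and 1127 CPM in T cells. The ratios were 10.2, 12.9 and 10.7, with intervals that reached from 9.63 to 13.5. NKG7, a granule membrane protein needed for degranulation, was 3.76-fold, 4.71-fold and 3.08-fold higher in NK cells. CST7, or cystatin F, which inhibits the cathepsins that activate progranzymes, was 3.04-fold, 3.91-fold and 2.54-fold higher. CTSW, a cathepsin of cytotoxic lymphocytes, was 1.86-fold, 1.82-fold and 1.89-fold higher, the most even ratio over the libraries. At least 1.5-fold higher in NK cells were 8 of 9 genes in Pre-IS, against 16.9% of all genes measured, 8 of 9 at 4 wpt, against 15.4%, and 8 of 9 at 8 wpt, against 14.5%. None was lower in Pre-IS and at 4 wpt, with 16.7% and 15.1% of all genes, and GZMM was at 8 wpt, with 13.2%. The median log2 ratio of the set was 1.91, 2.15 and 1.62, and over all genes it was 0.07, 0.08 and 0.09.

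**Figure D1:**
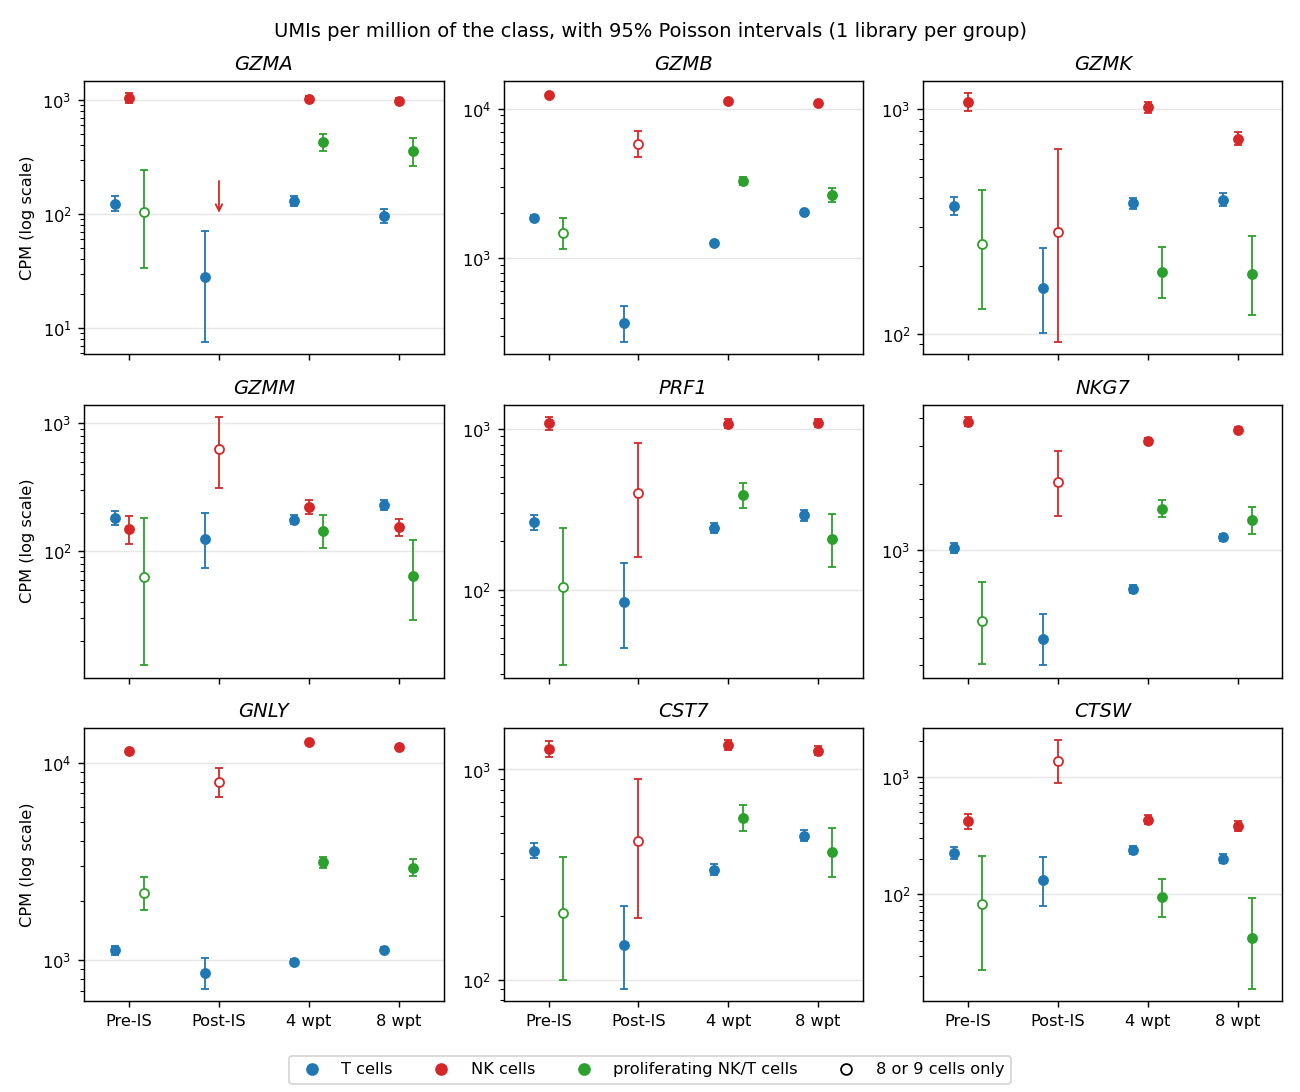
Level of each of the 9 granule genes in CPM of the class (log axis) in T, NK and proliferating NK/T cells of the 4 libraries, with exact 95% Poisson intervals. Open points stand for classes of 8 or 9 cells, the arrow marks 0 UMIs of GZMA in the 9 Post-IS NK cells below the upper limit of 210 CPM, and the 2 proliferating cells of Post-IS are left out. The blue points of T cells are lowest in Post-IS for all 9 genes, and for each gene the red points of NK cells in Pre-IS, 4 wpt and 8 wpt lie within 1.5-fold of each other.

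**Figure D2:**
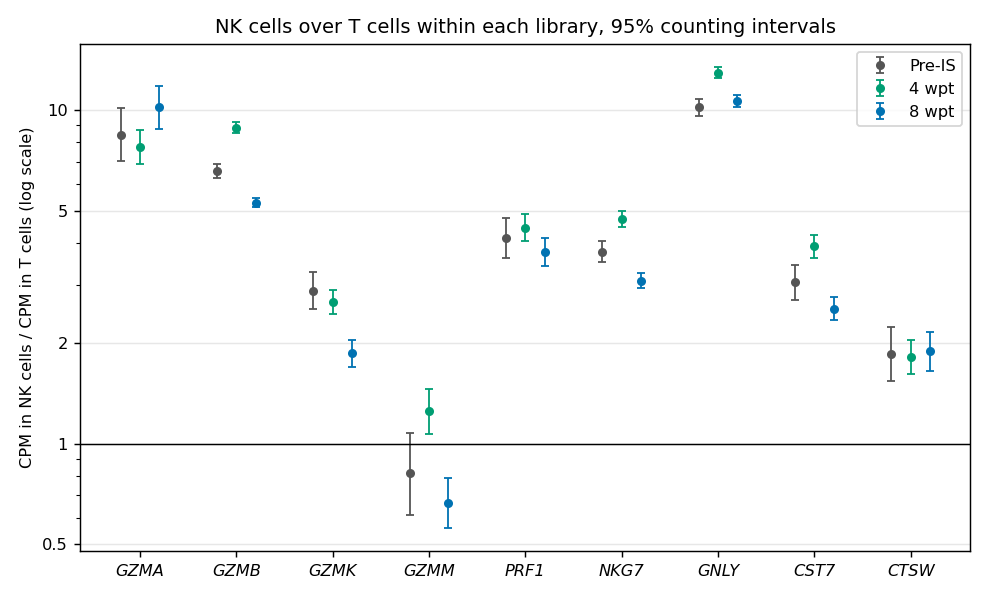
Ratio of the CPM in NK cells to the CPM in T cells of the same library (log axis) for each gene, with exact 95% counting intervals. GNLY lies above 10 in all 3 libraries, CTSW near 1.8 and GZMM on both sides of 1.

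In T cells, 7 of the 9 granule genes were at least 1.5-fold lower in Post-IS than in Pre-IS, 1 was at 4 wpt and 0 at 8 wpt. GZMB was at 1865 CPM in Pre-IS, 369 CPM in Post-IS, 1265 CPM at 4 wpt and 2044 CPM at 8 wpt. Post-IS was the only library under 1000 CPM, 5.06-fold below Pre-IS (3.85 to 6.77). GZMA was at 124, 27.8, 131 and 96.7 CPM in the same order, and its 4 UMIs in Post-IS came from 2 cells. GZMK was at 371, 160, 381 and 395 CPM and was 2.32-fold lower in Post-IS (1.53 to 3.69). For both tryptases the other 3 libraries lay within 1.36-fold of each other. PRF1 was at 263, 83.5, 243 and 290 CPM, which put Post-IS 3.15-fold below Pre-IS (1.78 to 6.15). NKG7 was at 1024, 397, 670 and 1146 CPM, and CST7 at 411, 146, 334 and 484 CPM. These 2 genes were 2.58-fold and 2.81-fold lower in Post-IS, and both were also lower at 4 wpt than at 8 wpt. CTSW was at 225, 132, 237 and 201 CPM, and its 1.70-fold lower Post-IS level had an interval of 1.07 to 2.87.

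The 7 of 9 genes that were lower in Post-IS than in Pre-IS T cells stand against 28.4% of all genes measured. None was 1.5-fold higher, against 14.4%, or 7.59% of the genes of at least 100 UMIs described next. Counts of Post-IS T cells are low, which widens the ratios of rarer genes. Among genes with at least 100 UMIs over both libraries, a minimum that was set after the data were seen and that all 9 passed, 17.7% were lower. The set's median log2 ratio was -1.36, and that of all genes was -0.001. The 2 genes that missed the threshold were GZMM, at 182 and 125 CPM, with a ratio of 0.687 (0.401 to 1.11), and GNLY, at 1124 and 863 CPM, with a ratio of 0.767 (0.634 to 0.922).

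GNLY in Post-IS T cells rested on few cells. Of its 124 UMIs, 48 came from 1 cell, and the 6 cells with most UMIs held 79.0%. Without the top cell of each library, a check added after the data were seen, GNLY was at 534 CPM in Post-IS and 1101 CPM in Pre-IS, or 2.06-fold lower (1.64 to 2.63). With that check all 9 genes were at least 1.5-fold lower and the median was -1.56, although 1 cell is a larger part of 115 cells than of 841. The check was run on the 9 genes only, so no share of all genes stands beside this count. GZMB without its top cell was 6.71-fold lower. Only 1 UMI of GZMA was then left in Post-IS, so no fold is given for it.

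At 4 wpt, 7 of 9 genes were at least 1.5-fold higher than in Post-IS, against 32.7% of all genes, and at 8 wpt 8 of 9 were, against 32.6%. These comparisons share the Post-IS library with each other and with the one above, so the low Post-IS value enters all 3. GZMB was 3.43-fold (2.62 to 4.59) and 5.54-fold (4.23 to 7.41) higher than in Post-IS. GZMM was 1.42-fold higher at 4 wpt, with an interval of 0.887 to 2.41, and 1.85-fold higher at 8 wpt (1.16 to 3.14). GNLY was 1.14-fold and 1.31-fold higher. CTSW at 8 wpt was 1.52-fold higher, with an interval of 0.962 to 2.55. None of the 9 genes was lower by 1.5-fold, with 14.4% and 14.6% of all genes.

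Against Pre-IS, no gene passed 1.5-fold in T cells at 8 wpt, where 9.08% of all genes were higher and 5.52% lower. The medians were 0.13 for the set and 0.04 for all genes. The ratios ran from 0.781 for GZMA (0.636 to 0.962) to 1.27 for GZMM (1.09 to 1.48), and GNLY was even at 1.00 (0.940 to 1.07). At 4 wpt only NKG7 passed the threshold against Pre-IS, 1.53-fold lower (1.43 to 1.64), against 7.15% of all genes lower, and none was higher, against 13.3%. GZMB lay just inside at 1.47-fold lower (1.40 to 1.55) and passed 1.5-fold under 4 of the alternative settings. CST7 was 1.23-fold lower, while GZMA, GZMK, GZMM, PRF1 and CTSW had intervals that include 1. At 8 wpt against 4 wpt, GZMB was 1.62-fold higher (1.55 to 1.69) and NKG7 1.71-fold higher (1.62 to 1.81), 2 of 9 against 6.84% of all genes, and none was lower, against 8.53%. CST7 was 1.45-fold higher. GZMA and CTSW went the other way, at 0.737 (0.622 to 0.871) and 0.846 (0.751 to 0.953).

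**Figure D3:**
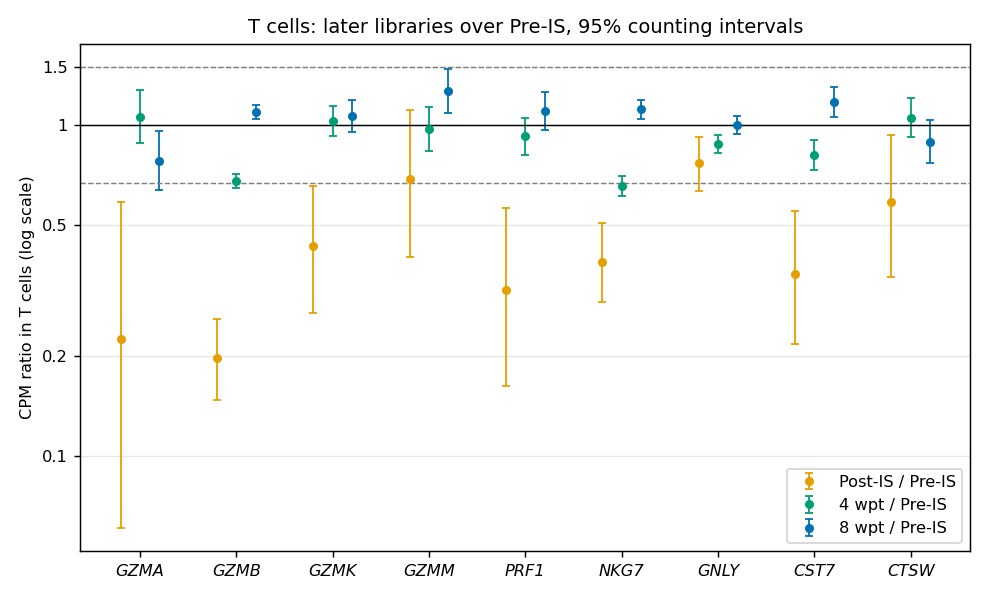
Ratio of the T cell CPM in Post-IS, 4 wpt and 8 wpt to the Pre-IS value (log axis) for each gene, with exact 95% counting intervals and dashed lines at 1.5-fold. The 9 Post-IS points lie between 0.198 and 0.767, and the 4 wpt and 8 wpt points between 0.654 and 1.27.

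For GZMB and NKG7, the levels in T cells differed between libraries mainly in the share of cells that held the transcript, and less in the number of UMIs in such a cell. NKG7 at 4 wpt against Pre-IS was an exception, with the share and the number per positive cell lower to a similar degree. With each cell thinned to 1000 UMIs, GZMB was found in 32.4% of T cells in Pre-IS, 7.06% in Post-IS, 24.6% at 4 wpt and 43.2% at 8 wpt. The mean in a cell with a GZMB UMI was 6.20, 5.0, 5.51 and 5.55 UMIs. The share thus spanned a range of 7.06% to 43.2% while the mean in positive cells stayed between 5.0 and 6.20. The Post-IS values rest on few positive cells among 85, and at full depth 1 T cell held 14 of its 53 GZMB UMIs. No interval is given for the means, so a steady level per positive cell in Post-IS is not shown. NKG7 was found in 35.1%, 12.9%, 27.8% and 44.9% of T cells at this depth, with 3.22, 3.09, 2.57 and 3.05 UMIs in a positive cell. PRF1 was found in 18.2%, 8.24%, 15.5% and 22.3%, and CST7 in 26.6%, 8.24%, 19.7% and 33.8%. CTSW was found in 14.7%, 9.41%, 15.3% and 15.0%, and GZMA in 7.04%, 1.18%, 7.38% and 7.58%, so for both the shares of Pre-IS, 4 wpt and 8 wpt lay close together. Thinning left out 88, 30, 35 and 52 T cells that were too shallow. Unthinned, GZMB was found in 35.6%, 10.4%, 27.7% and 46.1% of T cells.

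Free RNA could give such transcripts to cells that do not make them, and cells of other labels served as the background. A GZMB UMI was found in 3.42%, 0%, 3.51% and 6.18% of B cells, with median depths of 1512, 2166.5, 3890 and 2134.5 UMIs. It was found in 2.73%, 0%, 3.53% and 6.07% of CD14+ monocytes, with medians of 2058.5, 1196, 3190 and 2853.5 UMIs. The shares in T cells were above both in every library. With 12 B cells in Post-IS, a count of 0 allows a share of cells with a UMI of up to 25%, and with 329 CD14+ monocytes up to 0.912%.

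**Figure D4:**
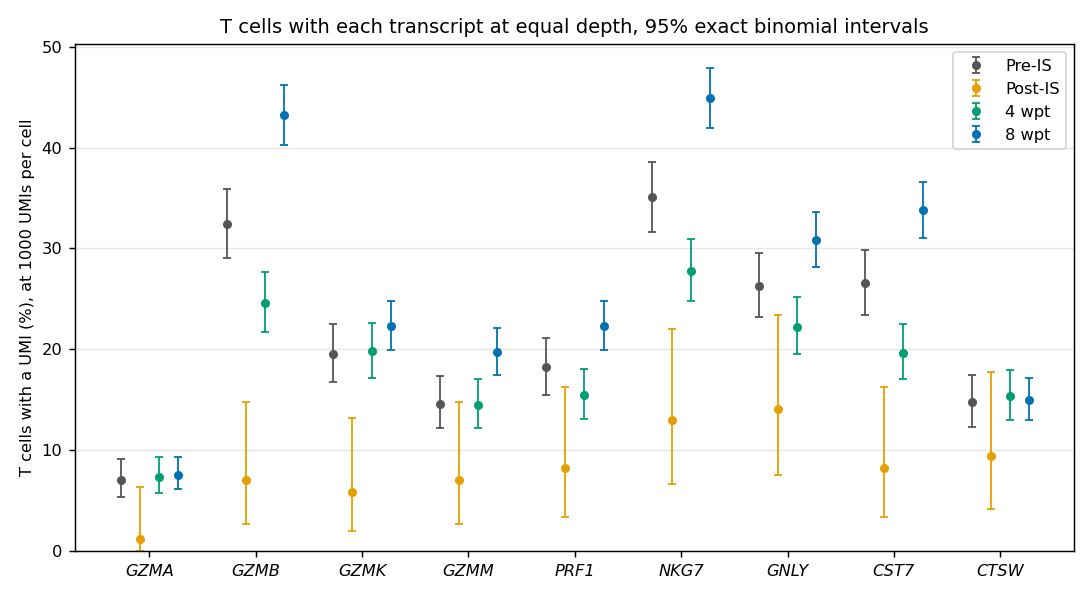
Percent of T cells with at least 1 UMI of each gene after thinning to 1000 UMIs per cell, with exact 95% binomial intervals, in the 4 libraries. Post-IS is lowest for all 9 genes, and GZMB, NKG7 and CST7 show the widest distance between 4 wpt and 8 wpt.

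Within T cells the transcripts sat together in a part of the cells. At 1000 UMIs per cell, 49.3% of Pre-IS T cells had none of the 9 genes and 34.4% had 3 or more. In Post-IS these shares were 77.6% and 10.6%, the latter being 9 of 85 cells. At 4 wpt they were 54.9% and 28.9%, and at 8 wpt 42.8% and 45.2%. NK cells differed in kind: 99.2% to 100% of them had 3 or more in all libraries at this depth, with a median of 6 genes in Pre-IS, 4 wpt and 8 wpt and 5 in the 7 Post-IS cells that were deep enough. Among B cells and CD14+ monocytes the share with 3 or more was at most 2.33%.

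**Figure D5:**
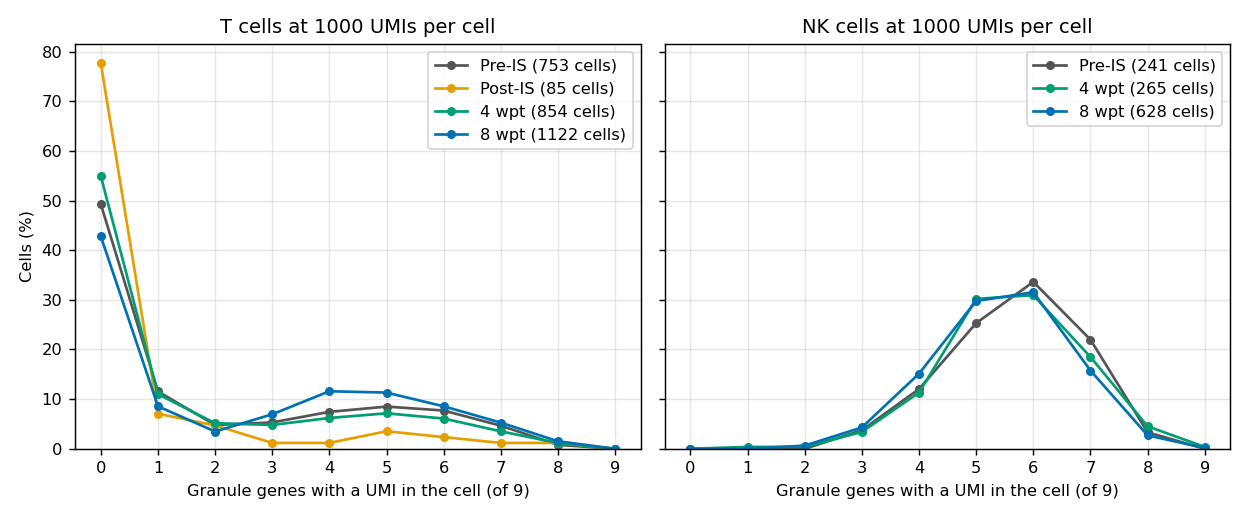
Percent of cells (vertical axis) by the number of the 9 granule genes with a UMI (horizontal axis), at 1000 UMIs per cell, for T cells of the 4 libraries and NK cells of the 3 libraries with over 200 of them. T cells have a peak at 0 and a second, lower one at 4 to 5 genes in Pre-IS, 4 wpt and 8 wpt, and NK cells have a single peak at 5 to 6 genes.

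T cells with 3 or more of the genes carried other marks of cytotoxic cells. KLRD1, the CD94 chain of NK receptors, was found in 53.7%, 55.6%, 49.8% and 55.4% of them at equal depth and in 1.32% to 2.28% of the other T cells. CD8A was found in 34.7%, 22.2%, 40.5% and 29.6% of them against 3.95% to 7.41%. TYROBP was found in 37.1% to 55.6% against 4.12% to 9.21%, and FCER1G, another NK receptor adaptor, in at most 1.58% of them, while 67.3% to 78.0% of the NK cells of Pre-IS, 4 wpt and 8 wpt had it. A CD3 transcript was present in 92.7% to 100% of the granule-rich T cells. LEF1 and CCR7, genes of naive and central memory T cells, were less frequent in granule-rich cells. LEF1 was found in at most 1.62% of granule-rich T cells and in 29.9% to 42.1% of the others, and CCR7 in 1.58% to 11.1% against 30.3% to 37.6%. IL7R, the interleukin 7 receptor, was found in 16.6% of granule-rich T cells in Pre-IS, 41.3% at 4 wpt and 22.7% at 8 wpt, and in 6 of 9 in Post-IS. In the other T cells it was found in 66.0%, 61.6% and 57.6% of Pre-IS, 4 wpt and 8 wpt and in 67.1% of Post-IS.

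Marker lists of other cells also differed between libraries. The NK marker list, of which 11 of 15 genes matched a row, summed to 1294 CPM in Pre-IS T cells, 577 CPM in Post-IS, 834 CPM at 4 wpt and 1289 CPM at 8 wpt. Of the 11 genes, 8 to 10 had a UMI in each library, NCAM1 was at 0 in all 4 and FCGR3 at 0 in Post-IS. The 9 T cell markers summed to 4151, 3402, 3819 and 4164 CPM, and the 10 monocyte markers to 48.1, 146, 62.4 and 84.1 CPM. The B cell markers summed to 35.6, 111, 23.6 and 30.9 CPM. In Post-IS the monocyte and B cell sums rest on 21 and 16 UMIs. Platelet, red cell and neutrophil markers in T cells were lowest in Post-IS. The part of these differences in the T cell results was not tested. Restricted to T cells with a CD3 UMI, GZMB was at 1878, 378, 1274 and 2055 CPM, close to the levels over all T cells.

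Split by coreceptor transcripts, all 9 genes were higher in the CD8 group than in the CD4 group in Pre-IS, 4 wpt and 8 wpt. No share of all genes stands beside this count. Coreceptor transcripts were not confined to T cells: CD4, CD8A and CD8B summed to 461, 449 and 407 CPM in NK cells. In T cells of the same libraries the sum was 404, 422 and 374 CPM. T cells with a CD8A or CD8B UMI and no CD4 UMI were at 4098 CPM of GZMB in Pre-IS, 3194 at 4 wpt and 3756 at 8 wpt. T cells with CD4 and no CD8 UMI were at 459, 315 and 1124 CPM. The CD4 group at 8 wpt was therefore higher than in the other libraries, and at 1000 UMIs per cell GZMB was found in 18.3%, 4.94% and 32.2% of its cells. NKG7 was found in 18.3%, 11.1% and 32.2% of the same cells. CTSW showed a wide gap: it was at 520, 619 and 479 CPM there and at 21.9, 4.46 and 20.2 CPM in the CD4 group. GZMA had 0 UMIs in the 131 CD4 cells of Pre-IS, which allows a share of cells with a UMI of up to 2.29% and does not show that the transcript was absent, and was at 31.2 and 14.5 CPM at 4 and 8 wpt. No coreceptor UMI was found in 60.2%, 43.5% and 59.5% of T cells, so the groups are parts of both lineages and not the lineages themselves. In Post-IS the groups held 14 CD8 and 12 CD4 cells, too few to compare.

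GZMK, which in human blood marks memory cells that are often poor in GZMB, was read beside GZMB in the same cells. At 1000 UMIs per cell, GZMB was present in 76.2% of the Pre-IS T cells with GZMK and in 21.8% of those without. The shares were 66.3% and 14.3% at 4 wpt, and 84.4% and 31.4% at 8 wpt. In Post-IS it was 1 of 5 cells against 6.25% of 80. PRF1 followed, with 46.3%, 45.0% and 47.6% of cells with GZMK against 11.4%, 8.18% and 15.0% of those without in Pre-IS, 4 wpt and 8 wpt. Cells with a UMI of 1 granule gene tend to be granule-rich cells. These shares cannot tell that apart from a relation particular to GZMK, which was not tested. Among NK cells, which nearly all had GZMB, the GZMB share was 98.5% to 100% with or without GZMK in these 3 libraries. GZMA was the gene that differed there, in 60.8%, 52.6% and 55.6% of NK cells with GZMK and in 36.9%, 40.9% and 38.5% of those without.

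NK cells showed small differences between Pre-IS, 4 wpt and 8 wpt. At the 1.5-fold threshold, 0 of 9 genes were higher and 0 of 9 lower in each of the 3 comparisons. The background was 17.5% higher and 9.31% lower for 4 wpt against Pre-IS, 15.4% and 6.89% for 8 wpt against Pre-IS, and 8.96% and 9.08% for 8 wpt against 4 wpt. The set's medians were -0.007, -0.08 and -0.08, and those of all genes 0.04, 0.06 and 0.02. Against Pre-IS, GZMK had the lowest ratio of the 9 at 8 wpt, 1.45-fold lower (1.29 to 1.62). Against 4 wpt, GZMM was 1.44-fold lower (1.18 to 1.76) and GZMK 1.37-fold lower (1.26 to 1.5). The share of NK cells with GZMK at equal depth was 53.9%, 50.2% and 41.2% in Pre-IS, 4 wpt and 8 wpt, and after thinning GZMK passed 1.5-fold in both comparisons. GZMM was 1.49-fold higher at 4 wpt than in Pre-IS (1.13 to 1.99) on 65 and 233 UMIs. NKG7 was 0.817 of its Pre-IS level at 4 wpt (0.770 to 0.867) and 0.916 at 8 wpt.

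The NK label of Post-IS covered 9 cells and 17563 UMIs, below the minimum for a comparison, and is given as values. GZMA had 0 UMIs, with an upper limit of 210 CPM, where the other libraries had 986 to 1043 CPM. GZMB was at 5808 CPM (4735 to 7050), GNLY at 7971 CPM and GZMK at 285 CPM (92.4 to 664), all below the other libraries. CTSW was at 1367 CPM (876 to 2033) and GZMM at 626 CPM (313 to 1121), both above the other libraries, whose highest values were 432 and 222 CPM. B cell markers in these 9 cells summed to 399 CPM, on 7 UMIs, against 53.5 to 80.2 CPM, and proliferation genes to 968 CPM, on 17 UMIs, against 167 to 258 CPM. Their part in the granule values was not tested.

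Proliferating NK/T cells lay below NK cells for all 9 genes and on both sides of T cells. At 4 wpt, where there were 41, GZMB was at 3275 CPM, between 1265 CPM in T cells and 11206 CPM in NK cells. GNLY was at 3130, GZMA at 425 and NKG7 at 1551 CPM, also between the other classes. GZMK at 189 CPM, GZMM at 145 CPM and CTSW at 94.4 CPM were below both, GZMK and CTSW by 2.02-fold (1.56 to 2.66) and 2.52-fold (1.75 to 3.76) against T cells. At 8 wpt, with 30 cells, GZMA was 3.68-fold (2.65 to 5.03) and GNLY 2.62-fold (2.35 to 2.90) above T cells. GZMK, GZMM and CTSW were 2.13-fold, 3.61-fold and 4.70-fold below them, on 26, 9 and 6 UMIs, and for GZMK the direction did not hold after thinning. Against T cells, 6 of 9 genes passed 1.5-fold upward and 2 downward at 4 wpt, with 24.4% and 25.3% of all genes, and the medians were 0.82 for the set and 0.10 for all genes. At 8 wpt 2 were higher and 3 lower, with 26.6% and 27.6% of all genes, and the medians were -0.24 and 0.18. Against NK cells, 9 of 9 were lower and 0 higher at 4 wpt, with 23.7% and 19.9% of all genes. At 8 wpt it was again 9 of 9 and 0, with 29% and 22.1% of all genes. The medians were -1.48 and -1.97 for the set and 0.03 and 0.05 for all genes. The label names both lineages: a CD3 transcript was present in 82.9% of these cells at 4 wpt and 73.3% at 8 wpt. By the marker rule for possible doublets, 12.2% and 6.67% of them were marked, and without these 8 and 9 genes were lower than in NK cells.

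Other labels held a small part of the set's UMIs, with some high values. The T, NK and proliferating cells together held the bulk of the set's UMIs: T cells 33.7%, 47.8%, 27.4% and 25.8% of a library's total, and NK cells 63.6%, 48.1%, 66.0% and 70.9%. The 9 NK cells of Post-IS, 1.49% of its cells, gave 333 of its granule UMIs and the 115 T cells 331. GZMB was at 369 CPM in B cells of 8 wpt, where 11 of 178 cells had it and the 9 cells with most UMIs held 98.7%. MS4A7+ monocytes of 8 wpt were at 316 CPM of GZMB, from 3 cells, and 192 CPM of GNLY, from 4 cells. The 12 cells labelled platelet at 4 wpt were at 1382 CPM of GZMB and 2118 CPM of GNLY, above the 1265 and 985 CPM of T cells in that library. These values rest on 15 UMIs from 2 cells and 23 UMIs from 3 cells, and of 6 platelet markers 1 had a UMI under that label. CST7 was found in dendritic cells of all libraries, at 59.0, 83.0, 50.02 and 75.1 CPM and in 16.7%, 25%, 34.8% and 24.1% of them. In dendritic cells the other 8 genes were found in 0% to 10.3% of cells. The dendritic cells were few, 30, 4, 23 and 29, and deeper than the T cells, with medians of 2908 to 7963 UMIs.

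The other parts of the granule pathway were read from 2 lists. The first holds 25 genes of granule biogenesis and release, such as serglycin (SRGN), the proteoglycan that packs granzymes, cathepsin C (CTSC), which activates them, RAB27A and the fusion factors UNC13D, STX11 and STXBP2. Of the 24 measured in Post-IS against Pre-IS T cells, 9 were at least 1.5-fold lower and 1, IGF2R, a receptor that sorts lysosomal enzymes, was higher, on 6 UMIs and with an interval that includes 1. The median was -0.18. SRGN was at 728, 480, 770 and 837 CPM in T cells of Pre-IS, Post-IS, 4 wpt and 8 wpt, and STXBP2 at 124, 20.9, 92.7 and 125 CPM. The Post-IS value of STXBP2 equals the level that 3 counts give there, so it lies at the floor. The 9 of 24 genes that were lower stand against the 28.4% of all genes given above. In NK over T cells, 12 of 23 were higher and 1 lower in Pre-IS, 10 and 1 of 25 at 4 wpt, and 7 and 1 of 25 at 8 wpt. Over all genes, 16.9%, 15.4% and 14.5% were higher and 16.7%, 15.1% and 13.2% lower. SRGN was 1.82-fold, 2.38-fold and 2.0-fold higher in NK cells and CD63, a granule membrane tetraspanin, 3.25-fold, 4.17-fold and 3.13-fold. KIF5B, a motor that carries granules, was the 1 lower gene in Pre-IS, with an interval that includes 1, and cathepsin L (CTSL) at 4 and 8 wpt. CD63 and CTSL were chosen after their values were seen.

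The second list holds serpins that block granzymes and related proteases. SERPINB9, an inhibitor of GZMB, was at 97.0, 41.7, 97.8 and 113 CPM in T cells, and at 270, 280 and 305 CPM in NK cells of Pre-IS, 4 wpt and 8 wpt. All 3 serpins, SERPINB1, SERPINB6 and SERPINB9, were at least 1.5-fold higher in NK than in T cells of all 3 libraries. Over all genes, 16.9%, 15.4% and 14.5% were higher in Pre-IS, 4 wpt and 8 wpt. All 3 serpins were also at least 1.5-fold lower in Post-IS than in Pre-IS T cells, against 28.4% of all genes. SERPINB6 had 1 UMI and SERPINB1 4 UMIs in Post-IS T cells, and the intervals of these 2 ratios include 1. The SERPINB9 level in Post-IS T cells also rested on few UMIs.

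Genes with the most similar pattern were found over 25 class and library sums of at least 20 cells, among 4115 genes. Likeness is the Pearson correlation of log2 CPM, and the sums share libraries and depth, so it is given as a description. The sums include B cells, monocytes and dendritic cells, in which the set was low, and this contrast enters every correlation. KLRF1 was closest to GZMA (r = 0.98), HOPX to GZMB (0.95) and GNLY (0.98), CD247 to GZMK (0.98), and the NK receptor gene NKG2D to PRF1 (0.99). KLRD1 was closest to NKG7 (0.98), MATK to CST7 (0.96) and SLA2 to CTSW (0.96). The closest genes to GZMM were PRKCQ, GATA3 and TC2N (0.97 each), of which PRKCQ and GATA3 are genes of T cell signalling and identity. Its correlations with GZMK (0.956) and CTSW (0.951) within the set were only slightly lower. Among pairs within the set, PRF1 and NKG7 were closest (0.99) and GZMB and GZMM least alike (0.86).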

How the data were processed

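Single-cell 5' V1 libraries (10x Genomics), 4 in all, were read as 150 bp pairs, per the labels. The authors deposited raw UMI counts per gene and cell and a label per cell; filters on cells and how labels were set are not given in the sources used here. Cell Ranger 3.1.0, Seurat 3.2.3 and the build Mmul_10 stand in the submitters' processing notes. Counts were summed per label and library and divided by the class total (CPM), with exact Poisson intervals for levels, Clopper-Pearson for shares and conditional binomial intervals for ratios, all at 95% and for counting error only. Classes were compared with at least 50 cells between libraries or 20 within one, and genes with at least 20 UMIs over both sums. A log2 ratio has an offset of 0.5 UMIs. An upper limit for a count of 0 rests on 3 counts, except for GZMA in Post-IS NK cells, where the exact Poisson limit is given. A single library per group allows no test. No doublet caller was run; cells with at least 2 marker genes of another lineage were left out in an alternative. All listed genes were named, and pathway genes past 1.5-fold in Post-IS against Pre-IS T cells or among the 3 with the largest CPM. Genes and lists were chosen with earlier results of these data known. The 3 most alike genes were taken for each member among genes with at least 500 UMIs in all, with an offset of 10 CPM. Python 3.11.15, NumPy 2.4.6, pandas 2.3.3, SciPy 1.17.1, and edgeR 4.0.16 in R 4.3.3 for scaling factors only, were used. The code for the ratio intervals was run on simulated independent counts, the model that these intervals assume. That run cannot show how the intervals perform where UMIs of a gene gather in few cells.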

Additional observations from a re-analysis of the deposited data

Results flagged for a closer look

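Between the same pair of libraries, 4 genes stood higher in one of the T and NK classes and lower in the other, with counting intervals on opposite sides of 1. No share of all genes stands beside this count. With many UMIs a gene's interval is narrow, so small ratios such as 0.964 and 0.943 also leave out 1. The difference between the classes was not tested, since each has 1 library per group. GZMB was 1.62 times its 4 wpt level at 8 wpt in T cells and 0.964 times in NK cells, and against Pre-IS it was 1.10 and 0.880 times. NKG7 at 8 wpt against Pre-IS was 1.12 times in T cells and 0.916 times in NK cells. GZMM at 8 wpt against 4 wpt was 1.31 times in T cells and 0.693 times in NK cells. GNLY was 1.14 times in T cells and 0.943 times in NK cells at 8 wpt against 4 wpt, and 0.876 and 1.11 times at 4 wpt against Pre-IS.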

How the results depend on the processing

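No paired analysis was possible because each group has 1 library. Of 229 counts of genes past 1.5-fold under alternative settings, 220 stayed within 1.5 times the main count. Of 161 medians, 150 stayed between the median lower limit and the median upper limit of the genes' counting intervals. Of 1017 ratios of single genes, which include those without the top cell, 144 left their counting intervals and 1 reversed. A change of sign was called a reversal only where the main ratio was at least 1.5-fold. Of 310 shares of cells, 119 left their intervals. The 7 lower genes of Post-IS against Pre-IS T cells were 7 to 8 under 11 alternatives, with medians of -1.62 to -1.10. They were 9 without the top cell of each gene, a setting chosen after seeing the data and run without a background of all genes. At 4 wpt against Pre-IS the count of lower genes in T cells was 2 with TMM, with median of ratios scaling, with equal weight per cell and with reduced totals (leaving out ribosomal protein, mitochondrial, immunoglobulin and hemoglobin genes), since GZMB joined NKG7, and 0 with the T, NK and proliferating labels pooled. Pooling also left 0 higher genes at 8 wpt against 4 wpt. In NK cells, 1 gene was lower at 8 wpt against Pre-IS with median of ratios scaling and after thinning, and 1 at 8 wpt against 4 wpt after thinning. The median of NK over T was 1.73 with equal weight and 1.76 with reduced totals in Pre-IS, and 2.02 with reduced totals at 4 wpt. At 8 wpt it was 1.54 with TMM and with median of ratios, 1.43 with equal weight, 1.38 thinned and 1.47 with reduced totals. For proliferating over T cells it was 1.05 thinned at 4 wpt and 0.23 with equal weight at 8 wpt, where the sign differed from the main value, and over NK cells at 8 wpt -1.07 thinned. GZMK in proliferating over T cells at 8 wpt reversed to 0.10 after thinning. Shares of T cells with 3 or more genes were 34.4%, 28.9% and 45.2% thinned in Pre-IS, 4 wpt and 8 wpt, and 29.4%, 28.9% and 38.9% when a gene needed 2 UMIs. Scaling moved the median of all genes by over 0.1 in a part of the comparisons, for example to -0.12 for 4 wpt and 8 wpt against Post-IS T cells with median of ratios, and to -0.08, -0.06 and -0.06 for NK over T in Pre-IS, 4 wpt and 8 wpt with reduced totals. With an offset of 2 UMIs it was 0.27 for Post-IS against Pre-IS and -0.41 and -0.33 for 4 wpt and 8 wpt against Post-IS, and with no UMI minimum 0.22, -0.31 and -0.26, all in T cells. The largest value was 0.53, for proliferating over T cells at 8 wpt with that offset. The cause of these moves was not tested. Low depth limits Post-IS most, where 0 UMIs in T cells allow up to 20.9 CPM.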
